A study of Homo sapiens with 3 samples.

Results

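The genes described here are 10 genes of the NRF2 antioxidant response, the transcription factor, its inhibitor and 8 of its target genes: NFE2L2, KEAP1, NQO1, HMOX1, GCLC, GCLM, TXNRD1, SRXN1, ME1 and OSGIN1. They were taken by gene symbol from the expression tables of 3 cultured human hepatocellular carcinoma (HCC) cell lines, 10 of the 16149 genes listed in at least 1 of them. Every one of the 10 was listed in all 3 tables and had a mean level of at least 1 RPKM (reads per kilobase of transcript and per fixed number of library reads), a level that 11370 of the 16149 genes reached. Messenger RNA was sequenced once from each line: the parent, subclone 1 and subclone 2. The labels name HCCLM3 as the cell line of all 3 libraries, while the paper works with HCCLM3-R, a derivative that carries a red fluorescent protein. The parent is labelled with low metastasis ability, whereas the paper's methods call HCCLM3-R highly metastatic. Subclone 1 is labelled with a higher ability that is specific to the lung, and subclone 2 with a dual one, to lung and celiac lymph node. All 3 were grown in DMEM without any treatment named in the labels. In the paper, subclones were raised from single cells out of lung or lymph node metastases of nude mouse xenografts, so that each is 1 clone, and the text does not say which clones were sequenced.

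NRF2, encoded by NFE2L2, is a transcription factor whose amount is set mainly at the protein level. KEAP1 holds NRF2 in the cytoplasm and hands it to a CUL3 ubiquitin ligase for destruction, and electrophiles or oxidants that modify KEAP1 let NRF2 escape. In the nucleus NRF2 pairs with a small MAF protein at antioxidant response elements and raises genes for glutathione, thioredoxin, quinone and NADPH metabolism. In liver cancer the pathway is known for being switched on lastingly in a share of tumours, by mutation of NFE2L2 or KEAP1 or by accumulation of SQSTM1.

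The parental library held 4488825 reads, that of subclone 1 had 4609696 and that of subclone 2 had 4725150, as worked out from the steps between the RPKM values. With 1 library a line there was no replicate, so no difference between lines was tested, and each interval given here is an exact 95% interval of the reads that covers counting error only and compares libraries, not conditions. Both comparisons with the parent use the same parent library, so that its error is in both. As bulk samples, the libraries cannot tell fewer cells with an mRNA from less of it per cell. Epithelial keratins were abundant in every library (KRT8 at 1614 to 1742 RPKM), while the hepatocyte product ALB was at 2.46 RPKM in the parent, 49.5 RPKM in subclone 1 and 68.8 RPKM in subclone 2. Of 7 markers of fibroblasts and blood cells, 4 were listed, all with a mean under 1 RPKM and with sums of 0.597, 1.49 and 0.0357 RPKM, and PDGFRA, PDGFRB and CD3E were not listed. Of 10 hepatocyte markers, 7 had a mean of at least 1 RPKM. In subclone 1 the interval of the ratio over the parent lay above 1 for 3 of them, beside 20.0% of 11127 genes. In subclone 2 it did so for all 7, beside 22.9%. The 7 include KRT8 and KRT18, whose many reads give narrow intervals. The summed level of the 10 markers was 2596, 2796 and 2900.2 RPKM in the parent, subclone 1 and subclone 2, most of it keratin. APOA1, TTR and SERPINA1, which hepatocytes make abundantly, stayed under a mean of 1 RPKM. The part of the hepatocyte markers in the results below was not tested.

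The core of the antioxidant response element was searched for in the promoter sequences of 9 of the 10 genes, to show what the genes share in sequence. The letters searched were TGACNNNGC on the strand of the gene and GCNNNGTCA for the other strand, in RefSeq windows of GRCh38.p14 that run from 250 bases before to 50 bases after a start site. The set of windows at hand had 12 for 9 of the 10 genes. It held none for HMOX1, which was therefore not searched. Counted by gene, a match in any window was present for 4 of the 9 genes, GCLM, KEAP1, ME1 and TXNRD1, for 18 of 63 other pathway genes with a window, and for 19.7% of the 9235 genes with a window and a mean of at least 1 RPKM (16.1% of all 27305 genes). Counted by window, it was present in 5 of the 12, in 14.7% of the 13469 windows of genes with a mean of at least 1 RPKM and in 13.3% of all 35116. The matches that lie wholly before a start site in these genes, with 10 bases on each side and the matching letters in capitals, read 5′ to 3′ on the strand of the gene as follows.
GCLM, chr1:93909446-93909474, minus strand: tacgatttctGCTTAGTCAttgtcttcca
KEAP1, chr19:10502784-10502812, minus strand: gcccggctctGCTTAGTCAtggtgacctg
KEAP1, chr19:10502807-10502835, minus strand: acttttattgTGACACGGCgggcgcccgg
ME1, chr6:83431170-83431198, minus strand: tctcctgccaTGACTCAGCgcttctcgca
TXNRD1, chr12:104215670-104215698, plus strand: acacgggctaTGACTTCGCtgttgtcacc
TXNRD1, chr12:104286920-104286948, plus strand: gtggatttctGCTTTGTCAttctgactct
The match of GCLM began 34 bases before the start site, those of KEAP1 31 and 54 bases before it, and that of ME1 137 bases before it. TXNRD1 had matches 99 bases before one start site and 102 bases before another. The same 9 letters, GCTTAGTCA, stood before the starts of GCLM and KEAP1. The stretches of GCLM and KEAP1 and the second one of TXNRD1 also touch an exon of some GENCODE transcript of the gene. ME1 and TXNRD1 each had 1 further match, which reached or followed a start site and is not shown. No match was found in the windows of NFE2L2, NQO1, GCLC, SRXN1 and OSGIN1, which says only that these letters are not in these windows. A match here is a description of letters and no evidence of binding.

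Most of the 10 genes had less mRNA in both subclones than in the parent. In subclone 1, 9 of the 10 were lower than in the parent and NQO1 was 1.06 times the parent, which turned to a log2 ratio of -0.04 when libraries were scaled to ACTB. In subclone 2, 8 were lower, NQO1 was 1.16 times the parent, and TXNRD1 could not be told from the parent at this depth. The median log2 ratio of the 10 was -0.52 in subclone 1 and -0.65 in subclone 2, where the median over all 11370 genes was 0.00 and 0.04. As the 10 were chosen with earlier results of these data known, this contrast describes the set and is no test of it. Ratios on the log2 scale were taken on RPKM plus 0.1, which understates differences of low genes, and ratios written as times are of RPKM itself.

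**Figure D1:**
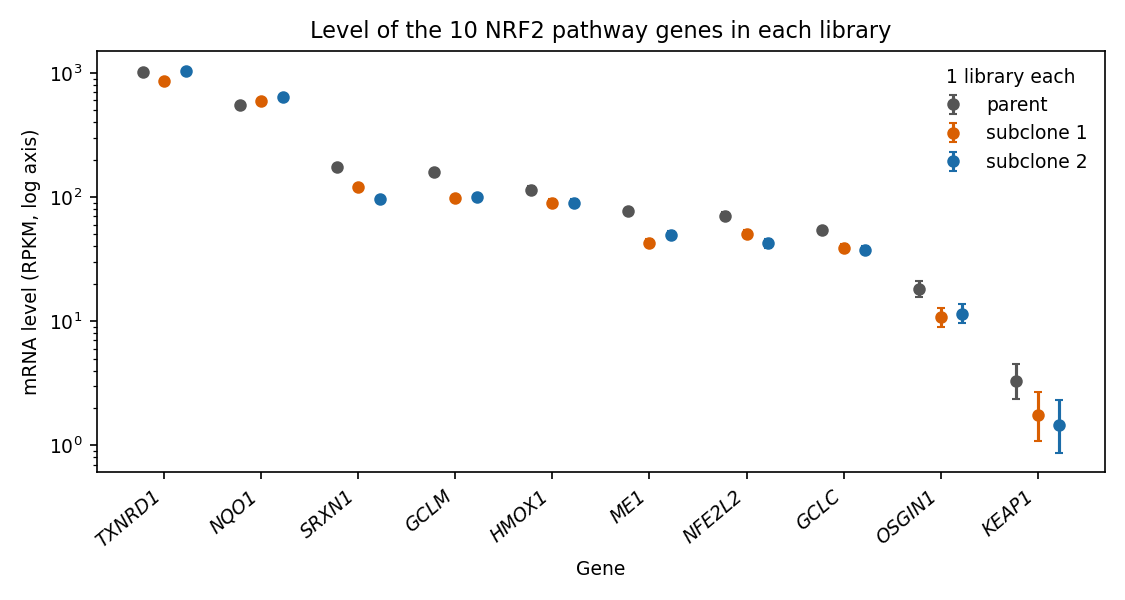
Level of each of the 10 genes in the 3 libraries, in RPKM on a log axis, ordered by the level in the parent; points are the single library of each line and bars the exact 95% Poisson interval of its reads, hidden by the point where it is narrow. TXNRD1 and NQO1 lie between 554 and 1041 RPKM in all lines, and KEAP1 is lowest with 3.33 RPKM in the parent and 1.46 RPKM in subclone 2.

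The transcription factor itself was among the genes with the lower levels. NFE2L2 (Entrez gene 4780) is on the minus strand of chromosome 2 (177227595 to 177392697) in the GENCODE annotation of GRCh38, and its principal transcript has 5 exons. It was measured at 70.6 RPKM in the parent (914 reads, 66.1 to 75.3), 50.7 RPKM in subclone 1 (674 reads, 46.9 to 54.7) and 42.5 RPKM in subclone 2 (579 reads, 39.1 to 46.1). The parent was highest and subclone 2 lowest, and none of the 3 intervals overlapped. Subclone 1 had 0.718 times the level of the parent (0.649 to 0.794), a log2 ratio of -0.48, and 10.9% of the 11370 genes had a ratio as low. The ratio of subclone 2 over the parent was 0.602 (0.541 to 0.669), a log2 ratio of -0.73 that 4.46% of genes reached. In GENCODE 11 other genes overlap NFE2L2, among them AGPS on the other strand, and since the TruSeq RNA kit does not mark strand, reads of an overlap cannot be assigned. Of the other members GCLM and HMOX1 have no overlapping gene in GENCODE, and the rest have 1 to 3.

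KEAP1, the adaptor that keeps NRF2 low, was the least abundant of the 10 and had the lowest ratios. The gene (Entrez 9817) is on the minus strand of chromosome 19 (10486120 to 10503741), with 6 exons. Its levels were 3.33 RPKM in the parent (2.37 to 4.56), 1.75 RPKM in subclone 1 (1.08 to 2.67) and 1.46 RPKM in subclone 2 (0.866 to 2.31). These levels rest on 39, 21 and 18 reads, so that KEAP1 is the least precise of the 10 genes, and its parent interval overlapped that of subclone 1 and lay just above that of subclone 2. In rank, KEAP1 stood at percentile 19.7 of the 11370 genes in the parent and at 4.91 in subclone 2. KEAP1 in subclone 1 was 0.524 times the parent (0.293 to 0.913), and in subclone 2 it was 0.438 times (0.236 to 0.785). Its log2 ratios of -0.89 and -1.14 were as low in 2.60% and 1.59% of the genes. With a pseudocount of 1 RPKM in place of 0.1 they were -0.66 and -0.82.

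The mRNA of the activator thus exceeded that of its inhibitor in each line, per length of transcript. NFE2L2 was 21.2 times KEAP1 in the parent (15.4 to 30), 29 times in subclone 1 (18.8 to 47.2) and 29.1 times in subclone 2 (18.2 to 49.4). These intervals overlap widely, and a difference in this proportion between the lines was not detectable at the depth of KEAP1.

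Both subunits of glutamate-cysteine ligase, which makes the first bond of glutathione, were lower in the subclones. GCLM (Entrez 2730), the modifier subunit, is on the minus strand of chromosome 1 (93885205 to 93909456) with 7 exons. Its level was 158 RPKM in the parent (2187 reads, 152 to 165), 97.7 RPKM in subclone 1 (1384 reads, 92.6 to 103) and 100.2 RPKM in subclone 2 (1455 reads, 95.1 to 105). The parent stood clear of both subclones, whose intervals overlapped each other. Over the parent the ratio of GCLM was 0.616 in subclone 1 (0.576 to 0.659) and 0.632 in subclone 2 (0.591 to 0.676), with log2 ratios of -0.70 and -0.66 that 5.02% and 5.64% of genes reached.

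GCLC (Entrez 2729), the catalytic subunit, is on the minus strand of chromosome 6 (53497341 to 53616970) with 16 exons. It was measured at 54.0 RPKM in the parent (927 reads, 50.6 to 57.6), 39.2 RPKM in subclone 1 (691 reads, 36.3 to 42.2) and 37.8 RPKM in subclone 2 (682 reads, 35.0 to 40.7). Again the parent was above both subclones, and the subclones overlapped. Its ratio over the parent was 0.726 (0.657 to 0.802) in subclone 1 and 0.699 (0.632 to 0.772) in subclone 2. Modifier mRNA exceeded catalytic mRNA by 2.93 times in the parent (2.72 to 3.17), 2.49 times in subclone 1 (2.27 to 2.73) and 2.65 times in subclone 2 (2.42 to 2.91). The interval of the parent overlapped those of both subclones, that of subclone 1 only at the edge (2.72 against 2.73). Such an overlap does not show equal proportions, and their difference was not tested.

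The 2 members of the thioredoxin system differed in their pattern. TXNRD1 (Entrez 7296), the cytosolic thioredoxin reductase, is on the plus strand of chromosome 12 (104215779 to 104350305) with 15 exons, and was the most abundant of the 10. Its level was 1023 RPKM in the parent (18019 reads, 1008 to 1038), 866 RPKM in subclone 1 (15668 reads, 853 to 880.1) and 1041 RPKM in subclone 2 (19302 reads, 1027 to 1056). Subclone 1 lay below the other lines, which overlapped each other. In order of level TXNRD1 was the 36th most abundant mRNA of the parent, the 47th of subclone 1 and the 35th of subclone 2. Subclone 1 had 0.847 times the level of the parent (0.829 to 0.865), and the interval of subclone 2 over the parent, 0.997 to 1.04, held 1.

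SRXN1 (Entrez 140809) encodes sulfiredoxin, which restores peroxiredoxins after overoxidation, and is on the minus strand of chromosome 20 (646615 to 653370) with 2 exons. The level was 176 RPKM in the parent (2044 reads, 169 to 184), 119.9 RPKM in subclone 1 (1426 reads, 114 to 126) and 96.7 RPKM in subclone 2 (1179 reads, 91.3 to 102). No interval overlapped another. The ratio over the parent was 0.679 (0.634 to 0.727) in subclone 1 and 0.548 (0.510 to 0.589) in subclone 2. Among the 8 target genes, SRXN1 had the lowest ratio in subclone 2, a log2 ratio of -0.87 that 3.11% of genes reached.

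NQO1 was the exception among the 10. NQO1 (Entrez 1728) encodes a quinone reductase that is widely used as a readout of NRF2, and is on the minus strand of chromosome 16 (69706996 to 69726951) with 6 exons. Its level was 554 RPKM in the parent (6472 reads, 541 to 568), 589.7 RPKM in subclone 1 (7070 reads, 576 to 604) and 643 RPKM in subclone 2 (7898 reads, 629 to 657). The parent was lowest and subclone 2 highest, with no overlap between intervals. The excess was small, 1.06 times in subclone 1 (1.03 to 1.10) and 1.16 times in subclone 2 (1.12 to 1.20). In subclone 1 its direction depended on the scale, since scaling to ACTB gave a log2 ratio of -0.04 in place of 0.09. That scaling moved all genes alike, their median by -0.13, so that it could not change the place of NQO1 among them. NQO1 stood at percentile 58.9 of the ratios of subclone 1 over the parent.

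HMOX1 (Entrez 3162) encodes heme oxygenase, which opens the ring of heme, and is on the plus strand of chromosome 22 (35380361 to 35394214) with 5 exons. It reached 113 RPKM in the parent (818 reads, 106 to 122), 89.3 RPKM in subclone 1 (661 reads, 82.6 to 96.4) and 89.3 RPKM in subclone 2 (678 reads, 82.7 to 96.3). The subclones had the same level and the parent lay above both. The ratio over the parent was 0.787 in each, with intervals of 0.709 to 0.873 and 0.710 to 0.873. With log2 ratios of -0.35 and -0.34, which 17.4% and 16.4% of genes reached, HMOX1 differed less from the parent than the other lower members did, apart from TXNRD1 in subclone 1.

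ME1 (Entrez 4199), the cytosolic malic enzyme that yields NADPH, is on the minus strand of chromosome 6 (83210389 to 83431071) with 14 exons. The mRNA was at 77.2 RPKM in the parent (1220 reads, 73.0 to 81.7), 42.9 RPKM in subclone 1 (696 reads, 39.8 to 46.2) and 49.6 RPKM in subclone 2 (825 reads, 46.3 to 53.1). The parent was highest and subclone 1 lowest, and no intervals overlapped. ME1 had the lowest ratio of the 8 target genes in subclone 1, 0.556 (0.505 to 0.610), with a log2 ratio of -0.85 that 3.10% of genes reached. In subclone 2 it had 0.642 times the level of the parent (0.587 to 0.702).

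OSGIN1 (Entrez 29948), an oxidative stress induced growth inhibitor, is on the plus strand of chromosome 16 (83948282 to 83966332) with 6 exons. It had 18.3 RPKM in the parent (198 reads, 15.8 to 21.0), 10.8 RPKM in subclone 1 (120 reads, 8.96 to 12.9) and 11.5 RPKM in subclone 2 (131 reads, 9.62 to 13.7). The parent was above both subclones, which overlapped. The ratio over the parent was 0.590 (0.466 to 0.744) in subclone 1 and 0.629 (0.5 to 0.788) in subclone 2, with log2 ratios of -0.76 and -0.67.

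**Figure D2:**
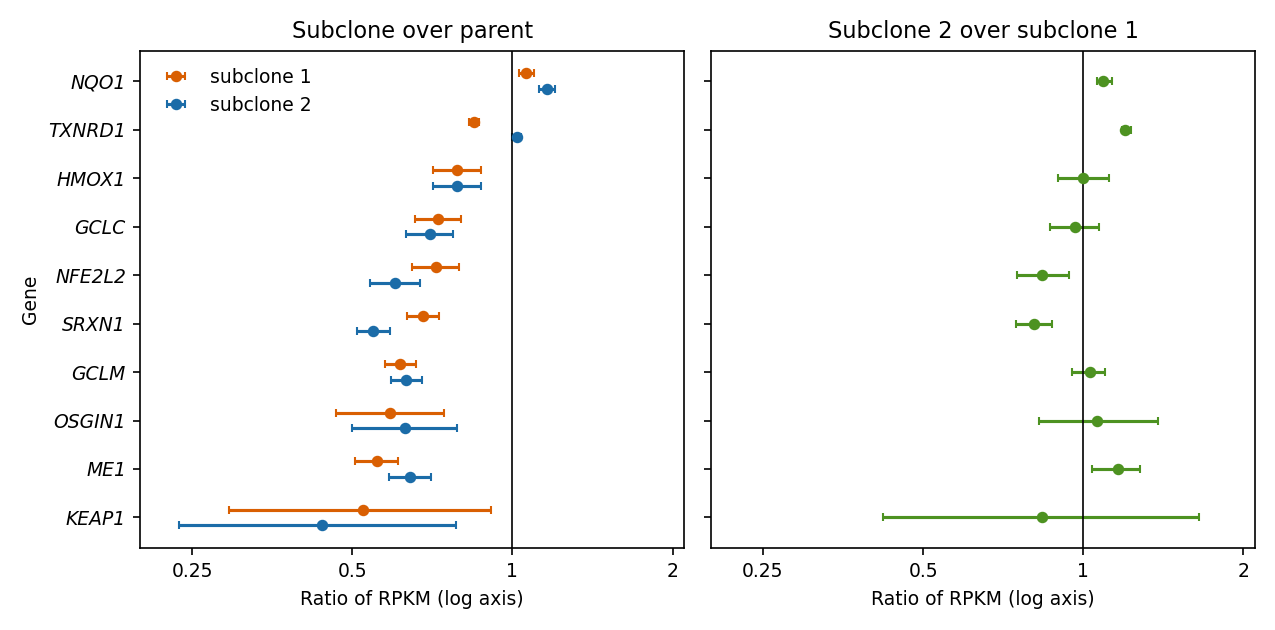
Ratio of RPKM for each of the 10 genes on a log axis, subclone over parent on the left and subclone 2 over subclone 1 on the right; points are ratios of single libraries, bars exact 95% intervals for counting error, and the vertical line marks no difference. On the left 9 intervals of subclone 1 and 8 of subclone 2 end below 1, and those of NQO1 start above it, at 1.03 and 1.12 (in subclone 1 not after scaling to ACTB).

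Differences of at least 1.5-fold were set against all genes. Because the 10 were chosen with earlier results of these data known, the shares of all genes are a description and no test of the set. In subclone 1, 4 of the 10 (KEAP1, GCLM, ME1 and OSGIN1) lay below the parent by at least 1.5-fold, beside 7.46% of the 11370 genes, and none was at least 1.5-fold higher, beside 11.6%. Scaling to ACTB raised the 4 to 7 (with NFE2L2, GCLC and SRXN1), beside 11.6% of genes lower on that scale, and scaling to GAPDH raised them to 5 (with SRXN1), beside 9.05%. At 2-fold none of the 10 was lower, beside 1.82% of genes, or higher, beside 4.90%. In subclone 2, 6 of the 10 (the same 4 with NFE2L2 and SRXN1) lay below the parent by at least 1.5-fold, beside 7.30% of genes, and none was at least 1.5-fold higher, beside 12.7%. Scaling to GAPDH left 5, as ME1 came to a log2 ratio of -0.57, beside 5.84% of genes lower on that scale, so that both subclones then had 5. KEAP1 alone was at least 2-fold lower in subclone 2, beside 2.16% of genes, and it was not with a pseudocount of 1, while none was at least 2-fold higher, beside 5.33%. In a set of 10, counts of 0 and 1 cannot be told from these 2-fold shares. Of the 4 genes with the element's letters before a start, GCLM, KEAP1 and ME1 were at least 1.5-fold lower in both subclones. TXNRD1 was so in neither, at 0.847 times the parent in subclone 1. Among the genes without these letters in their windows, OSGIN1 was so in both, NFE2L2 and SRXN1 in subclone 2, and NQO1 and GCLC in neither. A link between the letters and the ratios was not tested.

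Counting intervals gave the same picture with a different yardstick. The interval of the ratio lay wholly below 1 for 9 of the 10 in subclone 1, beside 19.0% of the 11127 genes with whole reads, and wholly above 1 for NQO1 alone, beside 20.0%. In subclone 2 it lay below 1 for 8, beside 17.9%, and above 1 for NQO1 alone, beside 22.9%. These shares are not like for like, because genes with many reads have narrow intervals and 8 of the 10 had a mean of at least 30 RPKM, as had 2572 of the 11370 genes. Within those abundant genes, a limit chosen after the values were seen, 2 of the 8 (GCLM and ME1) were at least 1.5-fold lower in subclone 1, beside 3.81%. In subclone 2, 4 of the 8 (NFE2L2, GCLM, SRXN1 and ME1) were, beside 4.04%.

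**Figure D3:**
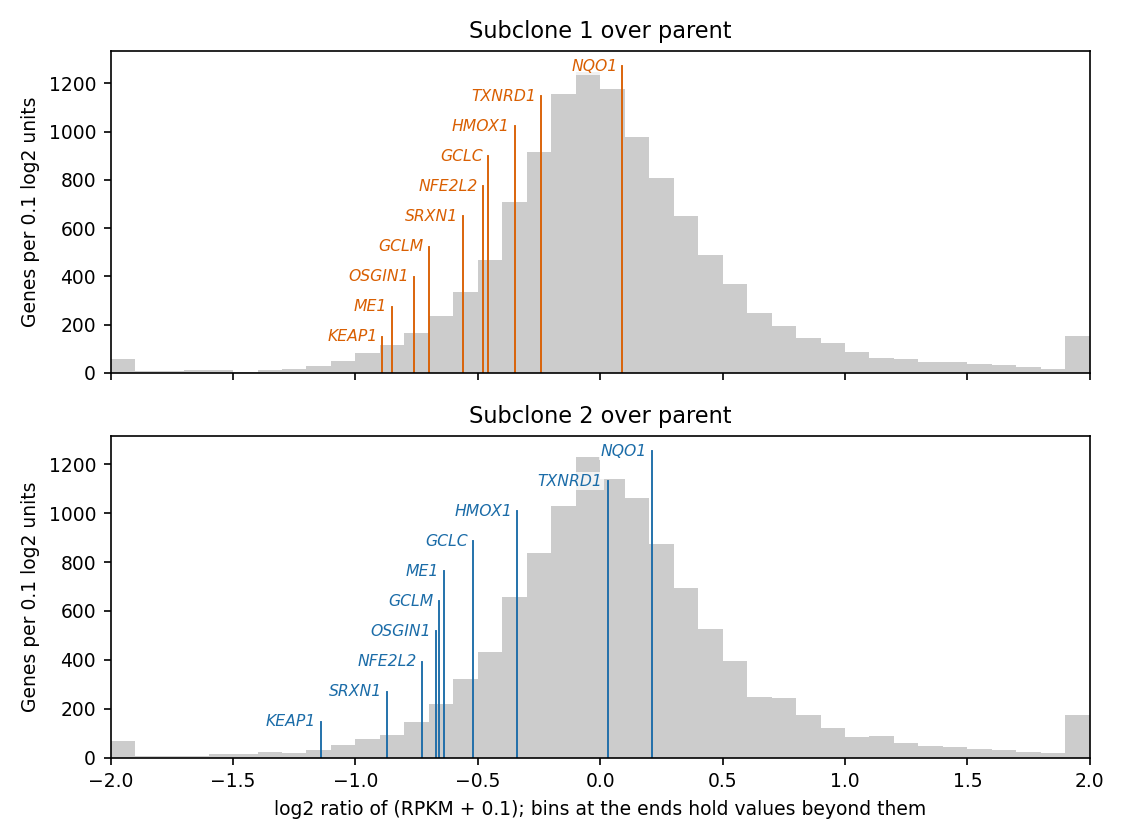
Log2 ratios of the 10 genes (vertical lines, their heights only for legibility) over a histogram of the 11370 genes in bins of 0.1, for subclone 1 and subclone 2 over the parent; the end bins hold all values beyond them. In both panels most lines stand left of the peak near 0, down to KEAP1 at -0.89 and -1.14, and NQO1 stands at 0.09 and 0.21 (at -0.04 in subclone 1 after scaling to ACTB).

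Between the subclones the log2 ratios of the 10 genes ran from -0.31 to 0.27. In subclone 2 none was above subclone 1 by at least 1.5-fold, beside 4.75% of genes, and none was below it by as much, beside 4.11%. In a set of 10, these counts cannot be told from these shares. Their median log2 ratio was 0.02, and that of all genes 0.03. Intervals lay above 1 for NQO1, TXNRD1 and ME1, 3 of 10 beside 11.6% of genes, and below 1 for NFE2L2 and SRXN1, 2 of 10 beside 8.49%. TXNRD1 was 1.20 times as high in subclone 2 (1.18 to 1.23), ME1 1.16 times (1.04 to 1.28) and NQO1 1.09 times (1.06 to 1.13). NFE2L2 stood at 0.838 times (0.749 to 0.938) and SRXN1 at 0.807 times (0.746 to 0.872), so that the factor and NQO1 differed in opposite directions. For GCLM the interval was 0.952 to 1.10, for GCLC 0.865 to 1.07 and for HMOX1 0.898 to 1.12, limits that allow for counting error only. Scaling to ACTB or GAPDH took GCLM past its interval, from a log2 ratio of 0.04 to 0.16 and 0.15. GCLC and HMOX1 stayed within theirs. The intervals of OSGIN1 (0.825 to 1.38) and KEAP1 (0.420 to 1.65) left room for larger differences.

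The pool of target mRNA was mostly TXNRD1 and NQO1. Summed over the 8 target genes (all but NFE2L2 and KEAP1), the level was 2176 RPKM in the parent, 1856 RPKM in subclone 1 and 2069 RPKM in subclone 2. This pair made up 72.5% of that sum in the parental library, and its share was 78.5% in subclone 1 and 81.4% in subclone 2. Without them, the median log2 ratio of the other 6 targets was -0.63 in subclone 1 and -0.65 in subclone 2, with ranges of -0.85 to -0.35 and -0.87 to -0.34. The pair had the highest ratios of the 8 over the parent in both subclones, so that leaving it out could only lower the median. The proportion of NQO1 to GCLM, free of any scaling of the libraries, was 3.50 in the parent (3.33 to 3.67), 6.04 in subclone 1 (5.70 to 6.40) and 6.42 in subclone 2 (6.07 to 6.79). The parent lay below both subclones in this proportion, and the subclones overlapped. It follows from the levels of NQO1 and GCLM given above and is no separate result.

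The order of the 10 by level was nearly the same in every line. TXNRD1 was followed by NQO1, and OSGIN1 and KEAP1 came last. In the parent SRXN1, GCLM, HMOX1, ME1, NFE2L2 and GCLC followed in between, and of these neighbours ME1 and NFE2L2 had overlapping intervals. In subclone 1 NFE2L2 ranked above ME1, while GCLM and HMOX1 overlapped, as did ME1 and GCLC. In subclone 2 GCLM, SRXN1 and HMOX1 overlapped from one to the next, and so did NFE2L2 and GCLC.

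The wider pathway was taken as 91 genes in 9 lists by role, of which 81 are not among the 10. Of these 81, GSTM2 was not listed and GSTM1 stayed under a mean of 1 RPKM, which left 79. Their median log2 ratio was -0.14 in subclone 1 and -0.06 in subclone 2, nearer to that of all genes than the -0.52 and -0.65 of the 10. These lists too were chosen with earlier results known, so that the contrast is a description only. At least 1.5-fold lower in subclone 1 were 2 of the 79 (2.53%, beside 7.46% of all genes), TKT of the pentose phosphate pathway (366, 231 and 263 RPKM in the parent, subclone 1 and subclone 2) and the carbonyl reductase CBR3. In subclone 2 they were 4 (5.06%, beside 7.30%), namely CBR3, the glutathione peroxidase GPX3, the glutathione transferase GSTA4 and the aldo-keto reductase AKR1C3. At least 1.5-fold higher were 8 of the 79 (10.1%) in each subclone, beside 11.6% and 12.7% of all genes. MAFF, GGT1, GLRX, GSTA2, GSTK1, TXNIP and SOD2 were so in both subclones, GSTM4 in subclone 1 and MAFK in subclone 2. GLRX, a glutaredoxin, was at 28.3, 53.3 and 50.2 RPKM, with log2 ratios of 0.91 and 0.82. GSTM4, a glutathione transferase, had a log2 ratio of 0.62 in subclone 1, and MAFK, a small MAF protein, one of 0.81 in subclone 2. TKT, GPX3, GSTA4, AKR1C3, GLRX, GSTM4 and MAFK are outside the naming rule and were named after their values were seen.

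**Figure D4:**
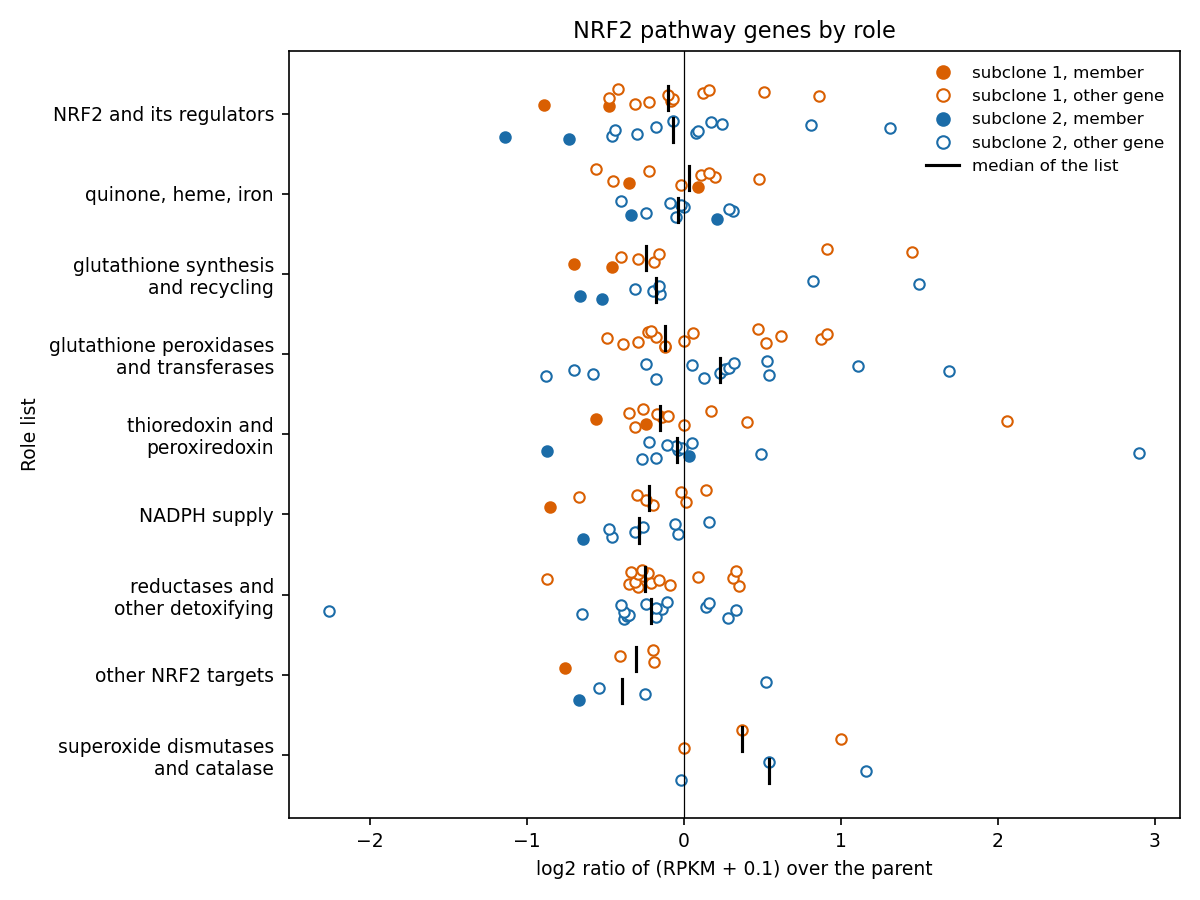
Log2 ratio over the parent of the 89 pathway genes with a mean of at least 1 RPKM, by role list, for subclone 1 (orange, upper row of each list) and subclone 2 (blue, lower row); filled points are the 10 genes, open points other genes, and black bars list medians. Open points spread to both sides of 0, from CBR3 at -2.26 to TXNIP at 2.90, and the filled points lie to the left except those of NQO1 and of TXNRD1 in subclone 2 (NQO1 is at -0.04 in subclone 1 after scaling to ACTB).

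Among NRF2 and its regulators, 13 genes with a median log2 ratio of -0.10 in subclone 1 and -0.07 in subclone 2 (-0.08 and 0.08 without NFE2L2 and KEAP1), the most abundant was SQSTM1, a receptor of autophagy that binds KEAP1. SQSTM1 was at 518, 491 and 548 RPKM in the parent, subclone 1 and subclone 2. MAFF, a small MAF partner of NRF2, was higher in the subclones, with 3.78 RPKM in the parent (42 reads), 6.92 RPKM in subclone 1 (79 reads) and 9.49 RPKM in subclone 2 (111 reads). Its log2 ratios were 0.86 and 1.31, and the intervals of both ratios lay above 1. Thus KEAP1 and MAFF stood at the ends of this list. The medians of the lists that follow count members of the 10 where a list holds them.

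In the lists for glutathione, single genes were higher while the ligase subunits were lower. GGT1, the gamma-glutamyltransferase that breaks down glutathione outside the cell, was at 3.21 RPKM in the parent, 8.92 RPKM in subclone 1 and 9.23 RPKM in subclone 2, log2 ratios of 1.45 and 1.5. GSR, glutathione reductase, was at 155, 127 and 135 RPKM, the highest mean of the list although GCLM exceeded it in the parent, and the list of 8 had medians of -0.24 and -0.18. Of the 17 peroxidases and transferases 15 reached 1 RPKM, with medians of -0.12 and 0.23. GSTK1, a mitochondrial and peroxisomal transferase, was at 34.9, 65.8 and 75.4 RPKM, log2 ratios of 0.91 and 1.11. GSTA2 had 4, 8 and 15 reads, a log2 ratio of 1.69 in subclone 2, and its reads may be shared with the near-identical GSTA1. The microsomal transferase MGST1 had the highest mean of the list, with 879, 748 and 742 RPKM, although the peroxidase GPX2 exceeded it in subclone 2 at 771 RPKM.

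In the thioredoxin list of 12, with medians of -0.15 and -0.05, the largest difference was that of TXNIP, a thioredoxin-binding protein that is best known as a glucose-responsive gene. TXNIP was at 1.96 RPKM in the parent (26 reads), 8.52 RPKM in subclone 1 (116 reads) and 15.3 RPKM in subclone 2 (213 reads), log2 ratios of 2.06 and 2.90. TXN, thioredoxin itself, was at 2385, 1926 and 1978 RPKM. The NADPH list of 8 had medians of -0.22 and -0.29, and it holds the lower ME1 and TKT.

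Quinone, heme and iron genes, 10 in number, had medians of 0.03 and -0.03, and FTL, the light chain of ferritin, was at 12217, 13183 and 12257 RPKM. The 16 reductases and other detoxifying enzymes had medians of -0.24 and -0.21. AKR1B10, their most abundant gene and a known NRF2 target, was at 2022, 1901 and 1780.4 RPKM. CBR3 had the lowest ratio of the whole pathway in subclone 2, a log2 ratio of -2.26 over the parent, with 10.3 RPKM in the parent (52 reads), 5.58 RPKM in subclone 1 (29 reads) and 2.06 RPKM in subclone 2 (11 reads), and a log2 ratio of -1.39 between the subclones. The remaining reported targets, 3 genes beside OSGIN1, had medians of -0.20 and -0.25 (-0.31 and -0.39 with OSGIN1), and TRIM16L was the most abundant of them at 36.8, 27.6 and 25.3 RPKM. The superoxide dismutases and catalase, 3 genes that are not classical NRF2 targets, had medians of 0.37 and 0.54. Within them SOD1 was level at 215, 215 and 213 RPKM, and the mitochondrial SOD2 was at 27.5, 55.3 and 61.5 RPKM, log2 ratios of 1.00 and 1.16.

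ATF4, a stress factor that shares some targets with NRF2, was described by 8 genes for comparison. Their median log2 ratio was -0.61 in subclone 1 and -0.03 in subclone 2, while that of the 10 genes was -0.52 and -0.65. The 8 were split. In subclone 1 they ran from -0.97 to 1.32, with 5 below 0 and 3 above. In subclone 2 they ran from -0.49 to 1.11, with 4 below 0 and 4 above.

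The genes whose pattern over the 3 libraries came nearest to KEAP1, the member with the largest log2 ratio in size, were sought among the 6011 genes with a mean of at least 10 RPKM, by the distance between their pairs of log2 ratios over the parent. The 3 smallest distances were those of CABYR (25.1, 13.4 and 11.5 RPKM in the parent, subclone 1 and subclone 2), GLA (121, 64.7 and 58.5 RPKM) and RPP40 (17.5, 9.24 and 7.39 RPKM), from 0.021 to 0.0938. With so few reads of KEAP1 this choice is not resolved, since 744 of the 6011 genes had both log2 ratios within the counting intervals of KEAP1.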

How the data were processed

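Messenger RNA of the parental line and its 2 subclones was sequenced with 1 library each from a TruSeq RNA kit. The authors deposited RPKM values per gene, with Entrez number and symbol, on build hg19 according to the submitters' processing notes. The aligner, the counting and the annotation are not given in the sources used here. A gene missing from a table was set to 0.

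Whole reads were recovered from the deposited RPKM. The total of the parent was the one that turned the values of low genes into whole lengths, and 90.2% of 3510 low genes came within 0.02 of one. The totals of the subclones followed from the most common ratio of values to the parent. This ratio was held by 653 genes for subclone 1 and 625 for subclone 2, taken to have equal reads. Gene lengths were then the smallest that gave whole reads in every library with a value. Where that length lay outside bounds set by GENCODE 29 transcripts, a multiple of it near a transcript length was taken. Of 15489 lengths, 83.1% were within 10% of a transcript length, a share that is partly by construction because multiples were taken only within that limit. Resolved genes held 95.7% to 95.8% of the totals. Log2 ratios used RPKM + 0.1, and the background was the 11370 genes with a mean of at least 1 RPKM. Intervals were exact Poisson for levels and exact Clopper-Pearson for ratios, at 95%. They cover counting error only, since reads without molecular identifiers are not independent molecules, and no p-value was computed.

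All 10 members are named, and of the 81 other pathway genes those at least 2-fold different in any comparison, those with the highest mean of each list and the 3 genes nearest to KEAP1, except for a gene that is not reported here. The members and lists were chosen with earlier results of these data known. Alternatives were pseudocounts of 0.01 and 1, 5 scalings, and other filters. The recovery of library totals and smallest lengths, but not the choice of multiples, was tested on simulated data. Python 3.11.15, numpy 2.4.6, pandas 2.3.3, scipy 1.17.1 and matplotlib 3.10.9 were used.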

Additional observations from a re-analysis of the deposited data

How the results depend on the processing

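Of the 210 log2 ratios of the 10 genes under 7 alternatives (2 pseudocounts and 5 scalings), 190 stayed within their counting interval, 19 left it in the same direction or on a ratio whose interval held 1, and 1 turned. The one that turned was NQO1 in subclone 1 over the parent, from 0.09 to -0.04 when divided by ACTB, which was at 3189 RPKM in the parent and 3496 RPKM in subclone 1. The cause was not tested. TXNRD1 in subclone 2 over the parent, whose interval held 1, went from 0.03 to -0.01 after centring on the median or the upper quartile. Division by ACTB moved the median of the 10 in subclone 1 from -0.52 to -0.65. The lower members there went from 4 to 7 at 1.5-fold, beside 11.6% of genes, and from 0 to 1 at 2-fold, beside 328 of 11370. Division by GAPDH gave 5 lower members at 1.5-fold in each subclone, in place of 4 and 6, beside 9.05% and 5.84% of genes. With a pseudocount of 1 the members lower by 2-fold in subclone 2 went from 1 to 0, beside 150 of 11370 genes. In a set of 10, these 2-fold counts of 0 and 1 cannot be told from the background. A limit of a mean of at least 30 RPKM, added after seeing the data, takes KEAP1 and OSGIN1 out of the set. The members lower by 1.5-fold then went from 4 of 10 to 2 of 8 in subclone 1, and from 6 of 10 to 4 of 8 in subclone 2. The shares of all genes went from 7.46% to 3.81% and from 7.30% to 4.04%.

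The background counts depend on the filter and the pseudocount by construction. In the order subclone 1 over the parent, subclone 2 over the parent and subclone 2 over subclone 1, a pseudocount of 1 gave 347 and 117, 380 and 150, and 80 and 77 genes at least 2-fold higher and lower, and for the last comparison 317 and 294 at 1.5-fold. No filter gave 1523 and 884, 1553 and 941, and 842 and 902 at 2-fold, and 2875 and 1976, 2986 and 2022, and 1740 and 1774 at 1.5-fold. A mean of at least 5 RPKM gave 233 and 71, 253 and 93, and 43 and 46 at 2-fold, and 666 and 485, 738 and 436, and 199 and 161 at 1.5-fold. Division by ACTB gave 328 lower genes at 2-fold and 1320 at 1.5-fold for subclone 1 over the parent, and 813 higher genes at 1.5-fold between the subclones.

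The share of higher among genes at least 1.5-fold different went from 60.8% to 42.7% with ACTB for subclone 1 over the parent, and from 53.6% to 71.4% with ACTB and 70.0% with GAPDH for subclone 2 over subclone 1. At 2-fold these shares went from 72.9% to 57.8%, and from 50.5% to 64.0% and 62.6%. ACTB moved the median of all genes to -0.13 for subclone 1 over the parent and to 0.16 between the subclones, GAPDH to 0.10 for subclone 2 over the parent and to 0.15 between the subclones.

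No paired analysis was possible because each line has 1 library, which also means that leaving out a library was not an option. Depth limits KEAP1 most, with 39 reads in the parent, and OSGIN1 next.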
